A study of Mus musculus with 3 samples.

Results

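Surface antigens that are targeted in glioma immunotherapy were followed, through 10 genes, in single tumour cells of mice. Of the 10, 8 encode the surface protein itself (Cd276, Il13ra2, Erbb2, Epha2, Cspg4, Cd47, L1cam and Ncam1), and B4galnt1 and St8sia1 encode the enzymes that make the ganglioside GD2. All 10 symbols were found, each as 1 row, among the 27999 entries of the count tables. The cells were GFP+ cells sorted from 3 brain tumours (tumours 1, 2 and 4, 1 library each), taken from mice aged 150, 106 and 149 days. Every animal had the same genotype, H3f3a K27M, Pdgfra D842V and Trp53 R270H, on a mouse strain heterozygous for a Rosa26 tdTomato and EGFP reporter (Gt(ROSA)26Sortm4), and had been electroporated as a newborn pup with constructs of the MADR method, which inserts transgenes at that reporter locus. There was no control tissue and no second genotype, so comparisons were made between cell classes of the same tumours. The label calls the disease a pediatric brain glioma. The sources used here do not name the promoter that drives the transgenes.

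Antibody, vaccine and CAR T cell therapies bind molecules on the surface of tumour cells, and a target is judged by how many tumour cells carry it and by which normal cells carry it too. GD2 is built from the ganglioside GM3 by GD3 synthase (St8sia1) and then GM2/GD2 synthase (B4galnt1), so a cell needs both enzymes to make it. CD276 (B7-H3) is a B7-family protein, IL13RA2 is a decoy receptor for IL-13, ERBB2 (HER2) and EPHA2 are receptor tyrosine kinases, CSPG4 (NG2) is a proteoglycan of oligodendrocyte precursor cells (OPCs) and pericytes, L1CAM and NCAM1 are neural adhesion molecules, and CD47 is the ligand through which a cell signals to SIRPA on macrophages not to be engulfed. Here transcripts were counted, as unique molecular identifiers (UMIs); neither surface protein nor ganglioside was measured.

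The libraries held 3386, 1632 and 4624 barcodes in tumours 1, 2 and 4, with median depths of 11909, 7571 and 9103 UMIs, and 3361, 1548 and 4377 cells were kept. Clusters were named from marker genes, with the 10 members left out of the clustering. OPC-like clusters, here called glioma cells, held 2930, 255 and 4080 cells, myeloid-like clusters 161, 396 and 82 cells, and oligodendrocyte-like clusters 438 cells in tumour 2 and 71 in tumour 4, with no such cluster in tumour 1; 270, 459 and 144 cells stayed unnamed. The transgene element WPRE was detected in 74.1%, 64.7% and 84.5% of the glioma cells once each cell was thinned to 2500 UMIs, and in 43.8% and 71.8% of the oligodendrocyte-like cells of tumours 2 and 4. Whether the oligodendrocyte-like cells belong to the tumour, or some OPC-like cells do not, cannot be told apart here. The 10 OPC markers summed to 1925, 2803 and 2556 UMIs per 1000000 UMIs of the class (CPM) in glioma cells of tumours 1, 2 and 4. The 18 myeloid markers summed to 17899 to 33423 CPM in myeloid-like cells, and the 10 oligodendrocyte markers to 27237 and 61702 CPM in oligodendrocyte-like cells. Glioma cells also held oligodendrocyte markers, at 797, 6852 and 3507 CPM in tumours 1, 2 and 4, above the OPC sums in tumours 2 and 4. Their myeloid markers summed to 210, 932 and 116 CPM. Over these classes, markers of astrocytes summed to 110 to 568 CPM, of neurons to 27.2 to 739 CPM, of endothelium to at most 55.5 CPM, of mural cells to at most 57.9 CPM, of T or NK cells to at most 8.52 CPM, of ependyma to at most 12.6 CPM and of red cells to at most 245 CPM. Libraries shared 6 to 20 barcodes pairwise.

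Limits on the class values come first. OPC transcripts were present in the myeloid-like clusters of tumours 1 and 4 but little in that of tumour 2. The transcription factors Olig1, Olig2 and Sox10 and the receptor phosphatase Ptprz1 stood at 40.6% to 84.4% of the glioma level in the myeloid-like cells of tumour 1 and at 48.4% to 64.9% in tumour 4, against 2.24% to 8.54% in tumour 2. WPRE was likewise lowest in tumour 2, at 97.3%, 57.8% and 6.01% of the glioma level in tumours 1, 4 and 2. The oligodendrocyte-like cells of tumour 4 also kept OPC transcripts (Ptprz1 at 53.3% of the glioma level, against 5.26% in tumour 2). In tumour 2, Mbp, a myelin gene, was detected in 99.2% of glioma and 98.0% of myeloid-like cells at 2500 UMIs. At the same depth C1qb, a myeloid gene, was detected in 33.3% of the glioma cells of tumour 2, against 5.87% and 1.18% in tumours 1 and 4. In oligodendrocyte-like cells C1qb was detected in 28.1% in tumour 2 and 4.23% in tumour 4. What part these transcripts had in the members' values was not tested, so tumour 2 is given separately throughout.

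**Figure D1:**
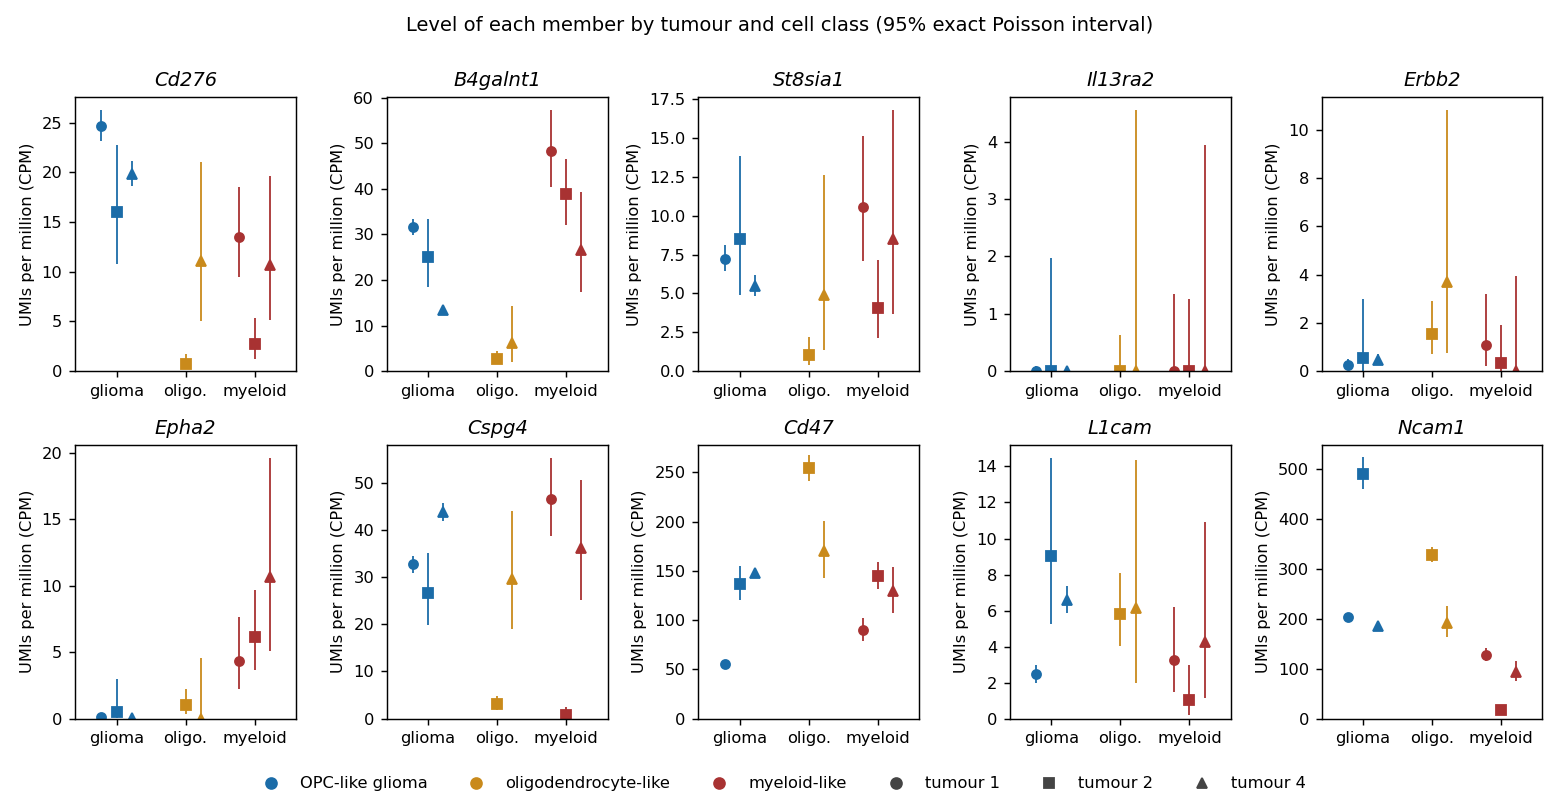
Level of each of the 10 genes (y axis, CPM, a separate linear scale for each gene) in glioma, oligodendrocyte-like and myeloid-like cells (x axis), 1 point for each tumour with its exact Poisson 95% interval. Epha2 is above the glioma level in each myeloid-like class, B4galnt1 is lowest in the oligodendrocyte-like classes, and Il13ra2 is at 0 throughout.

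Of the GD2 enzymes, B4galnt1 had a higher level in myeloid-like than in glioma cells in each tumour. The counting intervals of the ratio excluded 1, but they cover only counting error within a library. The test with tumours as replicates did not call it (edgeR adjusted p = 0.0503). B4galnt1 (chromosome 10, 127165225 to 127172330, plus strand, GRCm38 with GENCODE vM21) reached 31.6, 25.0 and 13.4 CPM in glioma cells of tumours 1, 2 and 4. In the myeloid-like cells of the same tumours it reached 48.4, 38.8 and 26.7 CPM, above the glioma cells of its own tumour in each case. In oligodendrocyte-like cells it stood at 2.73 CPM in tumour 2 (16 UMIs) and 6.16 CPM in tumour 4 (5 UMIs), below the glioma cells of both. The ratio of the myeloid-like to the glioma level was 1.53 (95% counting interval 1.27 to 1.83), 1.55 (1.10 to 2.23) and 1.99 (1.28 to 2.97). In tumour 2, where the OPC genes were lowest in myeloid-like cells, B4galnt1 was seen in all 5 myeloid-like clusters, at 36.2 to 81.0 CPM. What part glioma transcripts had in the B4galnt1 levels of myeloid-like cells was not tested.

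St8sia1, the enzyme of the preceding step (chromosome 6, 142821545 to 142964452, minus strand), reached 7.24, 8.52 and 5.46 CPM in glioma cells of tumours 1, 2 and 4. It reached 10.5, 4.09 and 8.54 CPM in myeloid-like cells, higher than in glioma cells in tumours 1 and 4 and lower in tumour 2. In oligodendrocyte-like cells it stood at 1.02 and 4.93 CPM on 6 and 4 UMIs. At 2500 UMIs a cell, both enzymes were detected together in 3 of 2930, 0 of 255 and 2 of 4080 glioma cells, and the products of the single shares were 0.120%, 0.161% and 0.0379%. These counts at this depth do not give the share of cells that hold both transcripts.

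Cd276 (chromosome 9, 58524298 to 58555437, minus strand) was a low transcript of the glioma cells, at 24.7, 16.0 and 19.9 CPM. In myeloid-like cells it stood at 13.5, 2.72 and 10.7 CPM, below the glioma level in all 3 tumours, with the lowest value in tumour 2 on 8 UMIs. In oligodendrocyte-like cells it stood at 0.682 CPM in tumour 2 (4 UMIs), where the glioma interval began at 10.8 CPM, and was 11.1 CPM in tumour 4 (9 UMIs). Its spread over the glioma cells of the 3 tumours was 20.2 ± 4.37 CPM (SD, n = 3).

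The 3 receptors among the members were not detected or rare in glioma cells. Il13ra2 (chromosome X, 147383476 to 147429192, minus strand) had no UMI in any of the 9642 barcodes, which allows a share of barcodes with a UMI of up to 0.0311%. Erbb2 (chromosome 11, 98412470 to 98437716, plus strand) had 60 UMIs in all: 11, 1 and 22 in the glioma cells of tumours 1, 2 and 4 (0.270, 0.533 and 0.462 CPM), 3, 1 and 0 in myeloid-like cells, and 9 and 3 in oligodendrocyte-like cells (1.53 and 3.70 CPM in tumours 2 and 4). Its highest levels were those of the oligodendrocyte-like cells. The Poisson intervals of tumour 2, 0.0135 to 2.97 CPM in glioma and 0.701 to 2.91 CPM in oligodendrocyte-like cells, overlapped. Those of tumour 4, 0.289 to 0.699 CPM in glioma and 0.762 to 10.8 CPM in oligodendrocyte-like cells (3 UMIs), did not. They cover counting error only.

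Epha2 (chromosome 4, 141301240 to 141329384, plus strand) had 68 UMIs in all and its highest levels in myeloid-like cells. It reached 4.36, 6.13 and 10.7 CPM there (12, 18 and 10 UMIs). In glioma cells it stood at 0.147, 0.533 and 0.0420 CPM (6, 1 and 2 UMIs), below the myeloid-like value in each tumour and with no overlap of the groups. The ratio of the myeloid-like to the glioma level was 29.6 in tumour 1 (95% counting interval 10.3 to 96.2), 11.5 in tumour 2 (1.82 to 479.6) and 254 in tumour 4 (54.2 to 2385). In oligodendrocyte-like cells 6 UMIs were found in tumour 2 (1.02 CPM) and 0 in tumour 4, where a count of 0 allows up to 3.70 CPM. Within tumour 2, the myeloid-like cluster led by Tmem119, P2ry12 and Cx3cr1, genes of microglia, held 8 of the 18 UMIs at 10.3 CPM (95% interval 4.44 to 20.3). The other 4 myeloid-like clusters of that tumour, at 0 to 11.6 CPM, had intervals that overlapped it.

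Cspg4 (chromosome 9, 56865033 to 56899870, plus strand) stood apart from myeloid-like cells in tumour 2 and not in tumours 1 and 4. Glioma cells held 32.7, 26.6 and 43.9 CPM. Myeloid-like cells held 0.681 CPM in tumour 2 (2 UMIs) but 46.6 and 36.3 CPM in tumours 1 and 4, the tumours whose myeloid-like clusters also held OPC transcripts. In tumour 1 its level in myeloid-like cells was 142% of the glioma level, where the 4 OPC genes stood at 40.6% to 84.4% and WPRE at 97.3%. In tumour 4 it was 82.7%, where they stood at 48.4% to 64.9% and WPRE at 57.8%. What part glioma transcripts had in these levels was not tested. Oligodendrocyte-like cells held 3.07 CPM in tumour 2 and 29.6 CPM in tumour 4.

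The adhesion molecule Ncam1 (chromosome 9, 49502136 to 49798925, minus strand) had the most UMIs of the 10 genes, 24165 over all barcodes. UMIs are counted at transcript 3′ ends and were not divided by length. Glioma cells held 203, 491 and 185 CPM, and oligodendrocyte-like cells held 328 and 192 CPM in tumours 2 and 4. The oligodendrocyte-like level was 66.9% of the glioma level of the same tumour in tumour 2 and 104% in tumour 4. Myeloid-like cells held 128, 17.7 and 93.9 CPM, below the glioma cells of the same tumour in all 3, and lowest in tumour 2 at 3.61% of the glioma level. L1cam (chromosome X, 73853778 to 73896105, minus strand) was low throughout, at 2.46, 9.05 and 6.59 CPM in glioma cells, 3.27, 1.02 and 4.27 CPM in myeloid-like cells and 5.80 and 6.16 CPM in oligodendrocyte-like cells, and the groups overlapped.

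Cd47 (chromosome 16, 49800533 to 49915010, plus strand) was found in every class. Glioma cells held 55.3, 137 and 148 CPM, myeloid-like cells 89.8, 145 and 129 CPM, and oligodendrocyte-like cells 254 and 170.1 CPM. The glioma and myeloid-like values overlapped, and the oligodendrocyte-like cells were above the glioma cells in both tumours that had them. Tumour 1 was the lowest for both glioma and myeloid-like cells.

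The counting used for these tables is not known to respect strand, and 6 members overlap another annotated gene: Cd276 overlaps Gm10657, B4galnt1 overlaps Slc26a10, St8sia1 overlaps Gm7457, Erbb2 overlaps Mien1 and Gm25048, and Ncam1 overlaps Gm11149, all on the opposite strand, while L1cam overlaps Arhgap4 on its own strand and Avpr2 on the other. Reads could have been shared between these pairs.

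**Figure D2:**
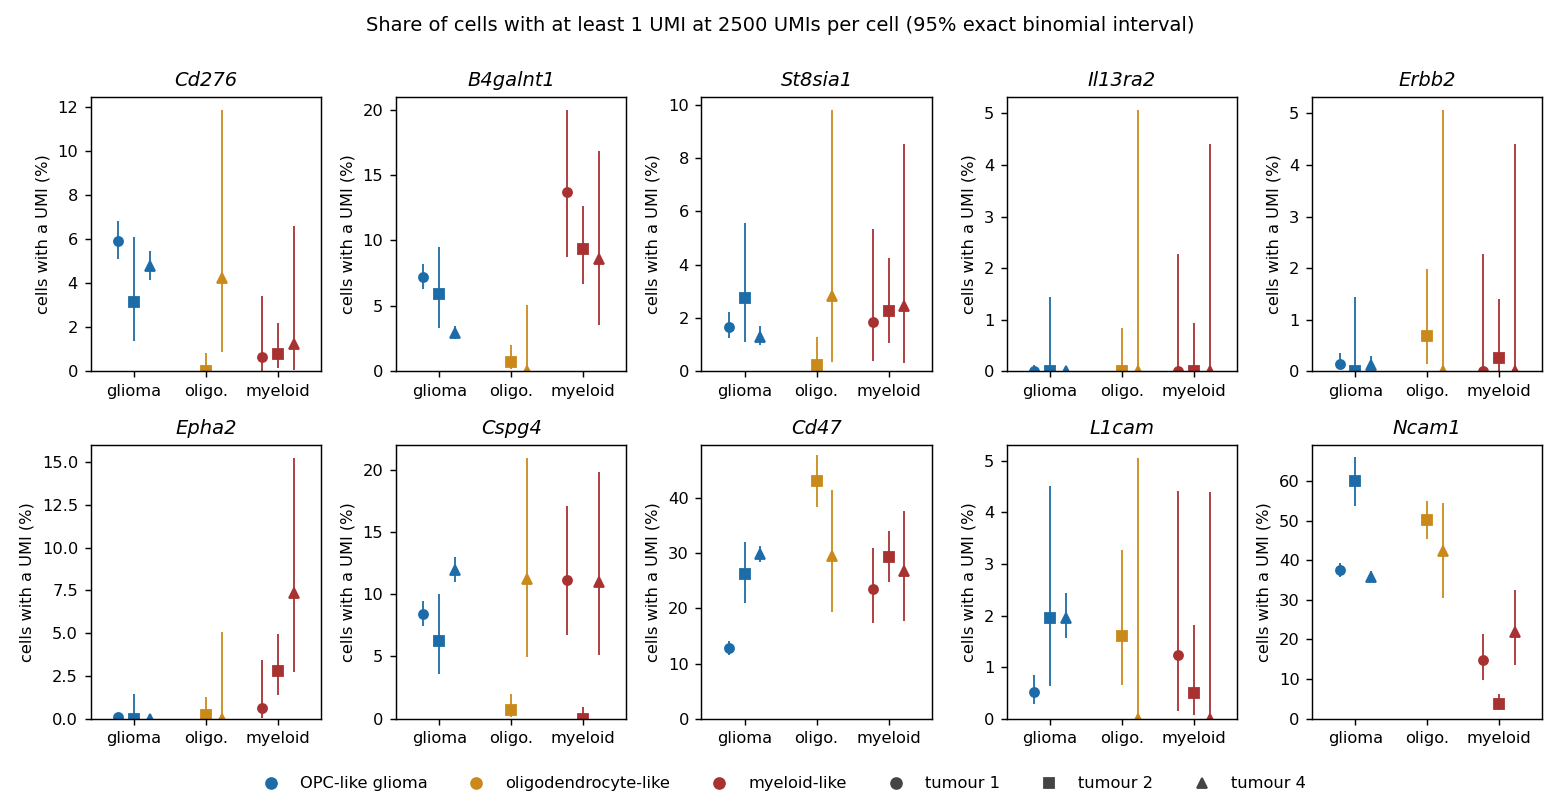
Share of cells with at least 1 UMI of each gene (y axis, percent, a separate linear scale for each gene) after thinning every cell to 2500 UMIs, by class (x axis) and tumour (points), with the exact binomial 95% interval. Ncam1 lies between 35.9% and 60.0% of glioma cells and between 3.79% and 21.95% of myeloid-like cells, while the 8 genes other than Ncam1 and Cd47 stay under 14% in every class.

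Antigen-positive cells were counted at equal depth, because the median depth differed between classes (for example 11999.5 UMIs in glioma and 13611 in myeloid-like cells of tumour 1, and 6155 and 7232 in tumour 2). Every kept cell had more than 2500 UMIs, so none was lost. Ncam1 was detected in 37.5%, 60.0% and 35.9% of glioma cells, Cd47 in 12.8%, 26.3% and 29.8%, Cspg4 in 8.43%, 6.27% and 11.99%, B4galnt1 in 7.17%, 5.88% and 2.92%, and Cd276 in 5.90%, 3.14% and 4.78%. St8sia1, L1cam, Erbb2 and Epha2 were each found in under 3% of glioma cells. The shares without thinning were higher, as for Cd276, at 27.3% of glioma cells in tumour 1.

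The same shares were taken in the other classes, which came from the same GFP+ sort and are not a normal reference. In tumour 2 myeloid-like cells, Cspg4 was found in 0 of 396 cells, which allows up to 0.758%, and Ncam1 in 3.79%. B4galnt1 was found in 13.7%, 9.34% and 8.54% of myeloid-like cells, above the share in glioma cells in each tumour. Epha2 was found in 1 of 161, 11 of 396 and 6 of 82 myeloid-like cells and in 2 of 2930, 0 of 255 and 0 of 4080 glioma cells in the random draw used; averaged over all possible draws, the shares were 0.964%, 1.74% and 3.75% against 0.0335%, 0.193% and 0.00567%. Cd47 was found in 43.2% and 29.6% of oligodendrocyte-like cells and in 23.6%, 29.3% and 26.8% of myeloid-like cells, so it did not mark the glioma cells at this depth.

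At least 1 of the 10 members was detected in 57.3%, 74.1% and 63.7% of glioma cells, or 65.0% ± 8.50 (SD, n = 3). The same held for 51.6%, 43.9% and 59.8% of myeloid-like cells and for 71.9% and 67.6% of oligodendrocyte-like cells. Most of it came from Ncam1 and Cd47: either was found in 45.5%, 70.6% and 54.3% of glioma cells. Cd276, Cspg4 or B4galnt1 was found in 19.9%, 14.5% and 18.7% of glioma cells, in 1.37% and 12.7% of oligodendrocyte-like cells, and in 23.6%, 10.1% and 19.5% of myeloid-like cells. These shares rise with depth and are no count of cells that express an antigen.

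For 2 pairs of the more abundant members, joint detection in a glioma cell is given beside the product of the single shares. Cd47 and Ncam1 were found together in 4.85% (95% exact interval 4.10% to 5.69%), 15.7% (11.4% to 20.7%) and 11.4% (10.5% to 12.5%) of glioma cells, where the products were 4.81%, 15.8% and 10.7%. Cspg4 and Ncam1 were found together in 3.72% (3.06% to 4.47%), 3.53% (1.63% to 6.59%) and 4.24% (3.64% to 4.90%), against products of 3.16%, 3.76% and 4.30%, and each product lay within its interval. At least 2 members were detected in 14.6%, 27.5% and 21.5% of glioma cells and at least 3 in 2.12%, 4.31% and 3.28%.

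**Figure D3:**
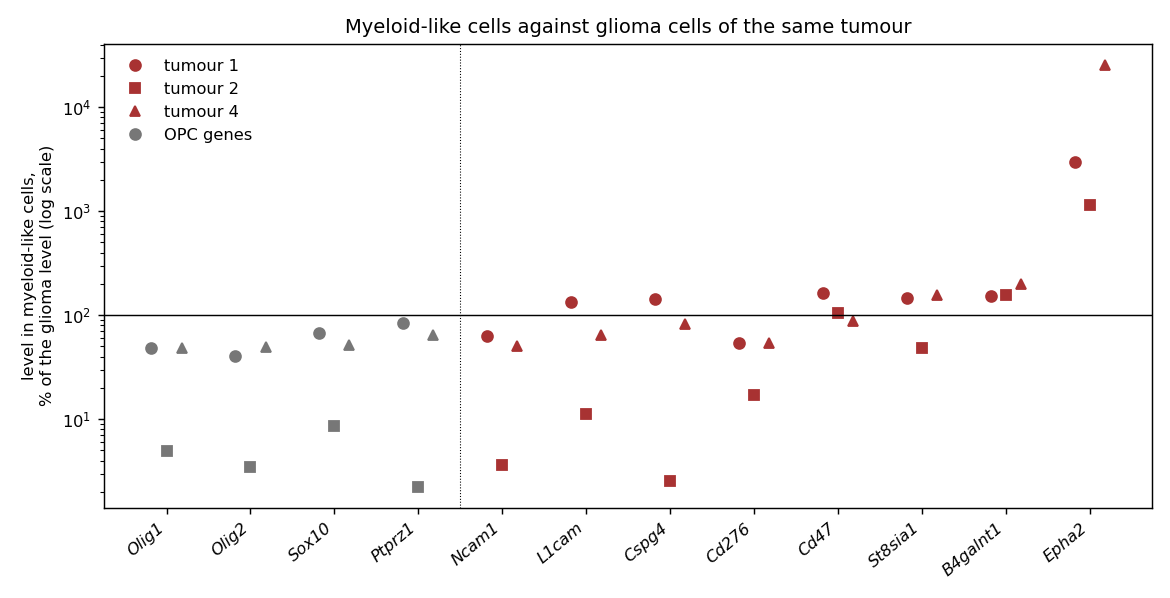
Level in myeloid-like cells as a percentage of the level in glioma cells of the same tumour (y axis, log scale), for the OPC genes Olig1, Olig2, Sox10 and Ptprz1 (grey) and for 8 members (red), with 1 symbol for each tumour. The squares of tumour 2 lie far below those of tumours 1 and 4 for the OPC genes, Ncam1, L1cam, Cspg4 and Cd276, while B4galnt1 is above the line at 100% in each tumour and Epha2 is highest.

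Epha2 was the 1 member called in the test of glioma against myeloid-like cells across all genes. Counts were summed over the cells of each class in each tumour and tested with edgeR's quasi-likelihood test with tumour as a block, and genes with an adjusted p under 0.05 (Benjamini-Hochberg over all genes tested) were called. Of 12517 genes tested, 157 were higher in glioma cells (1.25%) and 1421 lower (11.4%); DESeq2 called 434 higher and 1655 lower. Of the 10 members 8 passed the filter on low counts, since Erbb2 and Il13ra2 did not. Of these 8, 1 was called lower and 0 higher, a share near the 12.6% called over all genes tested. Their median log2 fold change was -0.10 beside 0.09 for all genes. Epha2, with 6, 1 and 2 UMIs in glioma cells, passed that filter through the myeloid-like class, where it is high. Its call is therefore not support for a direction. The number of tumours is 3. With tumour as a block, p-values measure how far differences between classes varied across these 3 libraries, with the spread taken from all 3 classes.

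Epha2 fell by 6.01 on the log2 scale (SE 0.82, edgeR adjusted p = 0.00138, lower in 3 of 3 tumours). It was called in each of the 14 alternatives, with an adjusted p of 7.4e-11 to 0.0133. The alternatives that kept the filter took Epha2 in through the same myeloid-like class, so they add no support for a direction. B4galnt1, at -1.30 on the log2 scale with an SE of 0.36, lay just outside the threshold, with an edgeR adjusted p of 0.0503, lower in glioma cells in 3 of 3 tumours. It was called in 9 of the 14 alternatives, among them DESeq2 (adjusted p = 0.0350), and the fit without tumour 2 (-1.001, adjusted p = 0.00968); without tumour 4 the adjusted p was 0.130. Ncam1 stood at 1.44 on the log2 scale, with an SE of 0.59 and an edgeR adjusted p of 0.158, higher in glioma cells in 3 of 3 tumours. It was called without tumour 2, at a smaller value of 0.57 (edgeR adjusted p = 0.0474), and with no filter on low counts (1.51, adjusted p = 0.000114). Restricting the myeloid-like class to the 43, 322 and 20 cells without a UMI of the 4 OPC genes at 2500 UMIs, an alternative chosen after seeing the data, raised it to 2.64 (edgeR adjusted p = 0.000537) and gave B4galnt1 -1.61 (adjusted p = 0.00711); this selection removes cells by glioma genes, so a higher glioma to myeloid ratio of genes that glioma cells express is built into it.

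The other members gave no call in this comparison. Cd276 had a log2 fold change of 0.87 (edgeR adjusted p = 0.311), Cd47 -0.71 (0.135), St8sia1 -0.62 (0.415), Cspg4 0.49 (0.666) and L1cam 0.42 (0.658). Without tumour 2 Cspg4 turned to -0.42 and L1cam to -0.22, neither called. Such p-values do not show that the classes had equal levels: the SE for Cspg4 was 0.68.

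B4galnt1 was higher in glioma than in oligodendrocyte-like cells. Only tumours 2 and 4 have both classes, and the fit took its spread from all 3 classes. Of the 12517 genes, 78 were higher in glioma cells (0.623%) and 506 lower (4.04%); DESeq2 called 257 higher and 750 lower. Again 8 members were tested, 1 was called higher and 0 lower, and their median log2 fold change was 0.82 beside 0.03 for all genes. B4galnt1 rose by 2.67 on the log2 scale (SE 0.57, edgeR adjusted p = 0.0376, higher in 2 of 2 tumours), and was called in 10 of 14 alternatives; the call was lost without tumour 1 (adjusted p = 0.0813), without tumour 2 (0.214, log2 fold change 1.31), without the tumour block (0.0845) and at a coarser clustering (0.0513). Cd276 stood at 2.44 on the log2 scale, with an SE of 0.72 and an edgeR adjusted p of 0.108. It was called in 3 of 14 alternatives, among them DESeq2 (adjusted p = 0.0269). Its value was 0.95 without tumour 2 and 4.25 without tumour 4, neither called (edgeR adjusted p = 0.295 and 0.0527). St8sia1 stood at 1.73 (adjusted p = 0.213), Cspg4 at 1.52 (0.329), Cd47 at -0.56 (0.359), Epha2 at -2.01 (0.426), L1cam at 0.12 (0.943) and Ncam1 at 0.09 (0.959), all from edgeR. Of these, Cspg4 was called in 2 of 14 alternatives. They were the fits with no filter on low counts (edgeR adjusted p = 0.00455) and with only 2 classes (0.0151). Epha2 had no UMI in the oligodendrocyte-like cells of tumour 4, and without tumour 2 its value turned to 3.99 with an SE of 14.1.

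**Figure D4:**
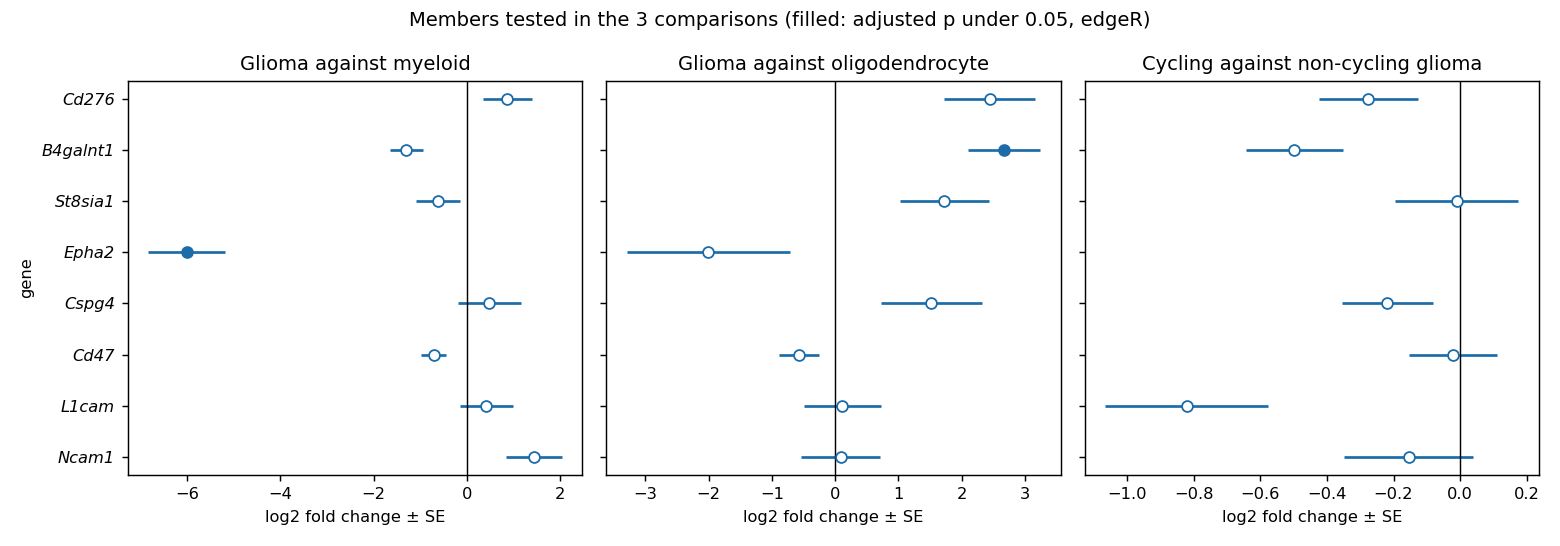
Log2 fold change with its standard error (x axis, a separate scale for each panel) of each member tested (y axis) in the 3 comparisons, with filled points for an adjusted p under 0.05. Epha2 in the first comparison and B4galnt1 in the second are filled, and no point is filled in the third.

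Glioma clusters of 1 tumour differed in several members. Among clusters of at least 50 cells (11, 3 and 10 in tumours 1, 2 and 4), Ncam1 spanned 135 to 328 CPM in tumour 1, 324 to 772 CPM in tumour 2 and 122 to 275 CPM in tumour 4. The highest, in tumour 2, was the cluster of 93 cells led by Gpr17, C1ql1, Bmp4 and Neu4, genes of committed oligodendrocyte precursors, with a counting interval of 707 to 841 CPM; the same cluster had the highest L1cam of tumour 2 (17.7 CPM, 9.17 to 31.0). In tumour 4 the Gpr17 and Neu4 cluster of 319 cells held 205 CPM of Ncam1, near the middle of that tumour's range.

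Cspg4 spanned 24.1 to 81.8 CPM in tumour 4, with the highest value in the cluster of 849 cells led by Igf2, Socs1 and Timp3 (counting interval 75.2 to 88.9). In tumour 1 it spanned 19.8 to 95.8 CPM, with the lowest value in a cluster led by Hspb1 and the interferon-induced Gbp2 and Ifit3, and the highest in a cluster of 64 cells led by Xpo1 and Xist, which was also the highest of that tumour for Cd47 (91.2 CPM, 69.4 to 117.6). In tumour 2 the cluster of 108 cells led by Ttr, Pdgfra and Ednrb was highest for Cspg4 and B4galnt1 (37.7 CPM each) and for Cd276 (26.1 CPM). Cd276 was highest in tumour 4 in the cluster of 502 cells led by Ly6a, Ly6c1 and Wfdc18 (28.5 CPM, 24.1 to 33.6). B4galnt1 was lowest in clusters led by mitotic genes in tumours 1 (23.6 CPM) and 2 (9.79 CPM), and in tumour 4 in a cluster of 52 cells led by heat-shock genes (6.03 CPM on 3 UMIs). Clusters were formed without the members, but they come from 1 library each, so these are descriptions.

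**Figure D5:**
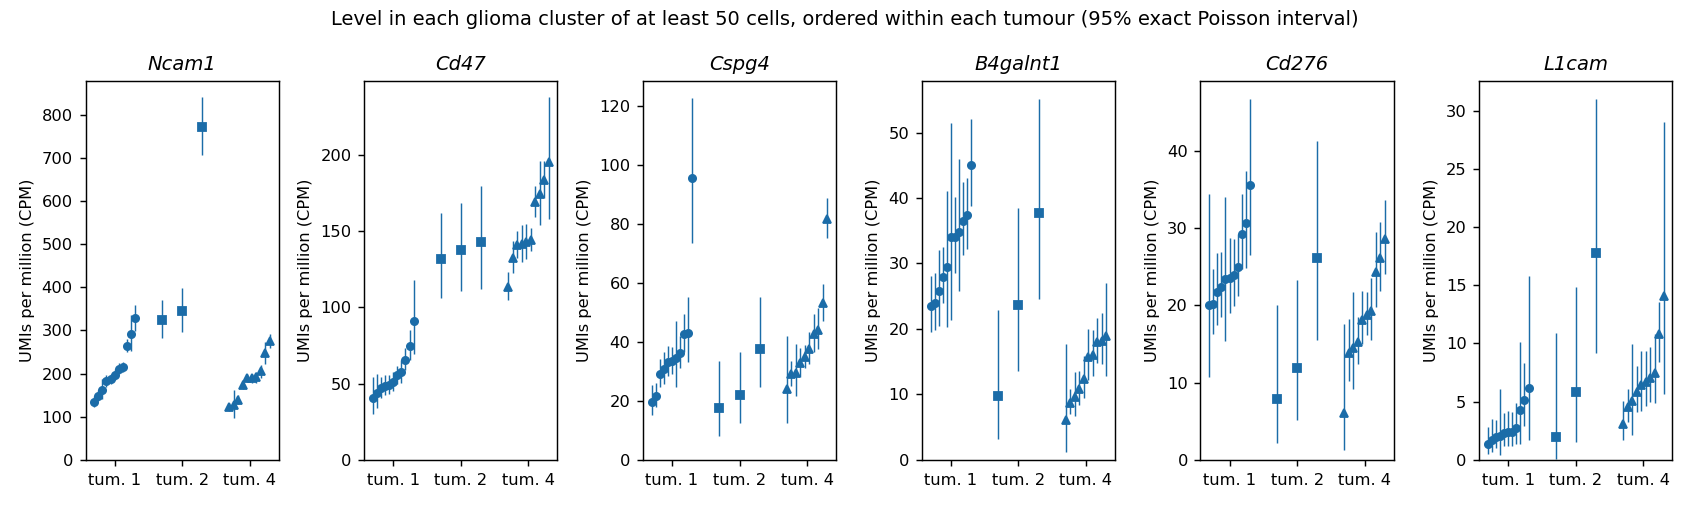
Level of 6 members (y axis, CPM, a separate linear scale for each gene) in each glioma cluster of at least 50 cells, ordered by level within each tumour (x axis), with the exact Poisson 95% interval. Single clusters stand above the rest for Ncam1 in tumour 2 (772 CPM) and for Cspg4 in tumours 1 (95.8 CPM) and 4 (81.8 CPM).

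No member was called between cycling and non-cycling glioma cells. Cycling cells had at least 5 UMIs of 40 cell cycle genes at 2500 UMIs (1015, 72 and 982 cells) and non-cycling cells at most 1 (1091, 151 and 2254 cells); the cycling cells were deeper, with medians of 14960 against 10970 UMIs in tumour 1, 7150 against 5875 in tumour 2 and 11250 against 8960 in tumour 4. Of 13442 genes tested, 1003 were higher (7.46%) and 511 lower (3.8%) in cycling cells, while DESeq2 called 643 higher and 148 lower. Of the 10 members 7 were tested and 0 were called by edgeR or DESeq2, with 2 at an unadjusted p under 0.05, a share near that of all genes (3472 of 13442, or 25.8%); their median log2 fold change was -0.22 beside -0.04 for all genes.

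The 2 were B4galnt1 and L1cam, both lower in cycling cells in 3 of 3 tumours. B4galnt1 stood at 25.5, 12.9 and 11.03 CPM in cycling and 35.8, 27.6 and 14.0 CPM in non-cycling cells of tumours 1, 2 and 4 (a difference of -0.50 on the log2 scale with an SE of 0.15, edgeR adjusted p = 0.0539). L1cam stood at 2.29, 3.23 and 3.75 CPM in cycling and 2.69, 9.86 and 7.99 CPM in non-cycling cells (-0.82, SE 0.24, edgeR adjusted p = 0.0571). Without tumour 2 both passed the threshold, with edgeR adjusted p of 0.0069 and 0.0074, in a fit that called 3558 of 13570 genes (26.2%). Without tumour 1 or 4, in fits that called 2.87% and 2.44% of genes, neither did. Ncam1 went in different directions, at 223 against 185 CPM in tumour 1, 332 against 588 CPM in tumour 2 and 191 against 180.4 CPM in tumour 4. Cd47 stood at 57.4 against 54.3, 140.3 against 139 and 142 against 150.1 CPM.

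Genes whose level followed a member across clusters were sought for the 5 members that reached 20 CPM in at least 1 cluster. Over 39 clusters of at least 50 cells, centred within each tumour, Cspg4 was most like Xylt1 (r = 0.91), Nova1 (0.88) and Col11a1 (0.88). Ncam1 was most like Casc4 (0.94), Strn4 (0.94) and Csnk2a1 (0.93). B4galnt1 was most like Svbp (0.86), Gpr162 (0.84) and Cd302 (0.82), Cd276 like RP23-207N5.2 (0.80), Ncan (0.79) and Nme4 (0.78), and Cd47 like Clptm1 (0.78), Spns1 (0.76) and Slc2a8 (0.75). The clusters of a tumour share a library and include every cell class, and these correlations are descriptions.

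Genes around the members were taken as 10 lists. A gene could pass the filter on low counts through the class where it is high alone, so the counts below describe the tested genes, not whole lists. Against myeloid-like cells, of 7 tested genes of lysosomal ganglioside breakdown 6 were lower in glioma cells, with a median log2 fold change of -1.99. Psap, the precursor of the saposins, fell by 2.96 (edgeR adjusted p = 0.00090). Of the 8 tested ganglioside synthesis genes besides the members, 0 were called, with a median of -0.56.

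Of the 11 genes of the B7 family and its receptors listed beside Cd276, 5 were tested and 5 were lower in glioma cells. At least Cd86, Pdcd1 and Icosl, the last named after its values were seen, were near 0 in glioma cells and entered the test through the myeloid-like class, so the count is not support for a direction of the list. Cd86, a costimulatory ligand, stood at 0.638, 2.13 and 0 CPM in glioma and 89.8, 154 and 81.1 CPM in myeloid-like cells (edgeR adjusted p = 0.00024), and the checkpoint receptor Pdcd1 at 0.0982, 0 and 0 against 4.73, 11.2 and 6.40 CPM (edgeR adjusted p = 0.00089). Of 9 tested phagocytosis checkpoint genes 5 were lower in glioma cells, 1 was higher and 3 were not called. Among the lower were the inhibitory receptors Lilrb4a (fell by 7.44, edgeR adjusted p = 0.00012) and Pirb (fell by 5.59, 8.3e-05). In glioma cells Lilrb4a stood at 1.18, 4.26 and 0.168 CPM and Pirb at 0.344, 1.07 and 0.336 CPM. At least these entered the test through the myeloid-like class, so the count is not support for a direction of this list. The CD47 receptor Sirpa, named after its values were seen, stood at 14.4, 9.05 and 9.80 CPM in glioma and 80.4, 214 and 129 CPM in myeloid-like cells (fell by 4.03, edgeR adjusted p = 0.00105). The 1 gene of that list that was higher in glioma cells was Cd24a, likewise named afterwards (rose by 1.47, edgeR adjusted p = 0.0172).

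Of the IL-13 and IL-4 axis, 3 of 4 tested genes were lower in glioma cells: the common gamma chain Il2rg (fell by 7.70), the transcription factor Stat6 (fell by 3.504, edgeR adjusted p = 0.00146) and, named after its values were seen, Il4ra (fell by 3.45). At least Il2rg, at 0.221, 0 and 0.147 CPM in glioma cells, entered the test through the myeloid-like class. The count is therefore not support for a direction of this list. None of 10 tested genes of the ERBB family, 12 of the Eph and ephrin family and 5 chondroitin sulphate proteoglycans was called, with medians of 0.32, 0.63 and 1.45. Of 8 adhesion genes 1 was lower in glioma cells, the polysialyltransferase St8sia4 (fell by 2.76, edgeR adjusted p = 0.00563), and of 6 other antigens 1, the receptor tyrosine kinase Axl (fell by 3.13, adjusted p = 0.0276).

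Against oligodendrocyte-like cells, 8 genes of the lists were called. St8sia5, another sialyltransferase of ganglioside synthesis, stood at 0.533 and 0.840 CPM in glioma and 18.9 and 23.4 CPM in oligodendrocyte-like cells of tumours 2 and 4 (fell by 4.88, edgeR adjusted p = 0.00305). Also lower in glioma cells were the Eph receptor Ephb1 (fell by 4.15), the ephrin Efnb3 (fell by 3.11), the adhesion molecules Cntn2 (fell by 3.70) and Nfasc (fell by 2.66), and Prom1 (fell by 2.24, edgeR adjusted p = 0.0326). Higher in glioma cells were Lrp1, a receptor for engulfment (rose by 2.07, edgeR adjusted p = 0.0289), and Cd24a (rose by 1.66, 0.0473). The lists of ganglioside breakdown, B7, IL-13, ERBB and proteoglycan genes held no call, with medians of -0.58, -0.11, 0.36, -0.36 and 1.54.

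In cycling against non-cycling glioma cells 2 genes of the lists were called, both lower: St8sia3, a sialyltransferase (8.91, 3.23 and 3.01 against 15.1, 13.8 and 5.23 CPM, fell by 0.86, edgeR adjusted p = 0.0163), and Il13ra1, named after its values were seen, a receptor chain for IL-13 (fell by 0.74, edgeR adjusted p = 0.0312), which was higher in cycling cells of tumour 2 (4.84 against 0.986 CPM). The list medians lay between -0.64 and 0.14.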

How the data were processed

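Libraries were made with the 10x 3′ kit, version 2, and the submitters' processing notes name STAR 2.5.1, Cell Ranger 1.3.0 and the mm10 build. The authors deposited 1 table of UMI counts per tumour, whole numbers per gene and barcode; the deposited normalized tables were not used. The sources used here do not state whether counting used strand. The members and gene lists were chosen with earlier results of these data known.

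A barcode was kept when 500 or more genes were detected and mitochondrial genes held no more than 20% of its UMIs. Kept cells were clustered per tumour with scanpy 1.11.5 (2000 variable genes without members and lists, 30 components, 15 neighbours, Leiden resolution 1). Cells with over 10% haemoglobin UMIs were left out when a cluster's marker levels were taken for naming. A class was named from marker lists by thresholds set after the clusters' marker levels were seen (mean log2(CPM + 1) of at least 8 for myeloid and oligodendrocyte and 5 for OPC markers, 3 markers at 20 CPM, and 10 leading genes that did not speak for another class). Scrublet called 0, 3 and 0 doublets and so did not work; the highest-scoring 92, 21 and 171 cells were left out in an alternative. Poisson and binomial intervals are exact, at 95%, a count of 0 is read as up to 3, and both cover counting error only.

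Sums per tumour and class, 811437 to 47634289 UMIs, were tested with edgeR 4.0.16 (filterByExpr, TMM, tumour as block, since classes of a tumour come from 1 animal); DESeq2 1.42.0 was an alternative. The labels give the libraries as separate tumours. All members are named; from each list the 2 genes with the largest change among those called with 1 sign in every tumour, and the 3 genes most like each member with at least 20 CPM in a profile (Pearson's r of log2(CPM + 10)). A gene that this rule names is not reported here. Coordinates are from GENCODE vM21.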

Additional observations from a re-analysis of the deposited data

How the results depend on the processing

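Counts of called genes and of called members both moved with the settings. Against myeloid-like cells, 1578 genes became 3169 with no filter on low counts and 1017 without the tumour block (no replicate block). They became 3344 with only myeloid-like cells without a UMI of the 4 OPC genes after thinning, a setting chosen after seeing the data. Before thinning, these selected cells still held UMIs of some of those genes in each tumour. With 1 tumour left out, the genes called were 1118 (without tumour 4) to 2254 (without tumour 2). The members called went from 1 to 2 with DESeq2, with only 2 classes in the fit and at clustering resolutions of 0.5 and 2. They also went to 2 with members and lists left in the clustering and without the highest Scrublet scores. They went to 3 with no filter and with the selected myeloid-like cells, and to 1 to 3 with 1 tumour left out. Against oligodendrocyte-like cells, 584 genes became 1007 with DESeq2, 1770 with no filter, 143 without the replicate block, 1661 with only 2 classes in the fit, and 213 (without tumour 4) to 872 (without tumour 2) with 1 tumour left out; the members called became 2, 3, 0 and 3 in the same settings, 0 at a resolution of 0.5, and 0 to 1 with 1 tumour left out. For cycling cells, 1514 genes became 791 with DESeq2, 2291 with no filter, 172 without the replicate block and 314 (without tumour 4) to 3558 (without tumour 2) with 1 tumour left out; the members called became 2 with no filter, 1 when cycling cells needed at least 10 UMIs, and 0 to 2 with 1 tumour left out.

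The share of glioma cells with at least 1 member was 84.8% at 5000 UMIs, 94.3% without thinning and 21.4% when 2 UMIs were required. It ran from 60.5% to 68.9% with 1 tumour left out. Members that were not called changed sign in several fits. With 1 tumour left out, the log2 fold change against myeloid-like cells ran from -0.42 (without tumour 2) to 1.40 for Cspg4 and from -0.22 (without tumour 2) to 1.11 for L1cam. Against oligodendrocyte-like cells it ran from -2.91 to 3.99 (without tumour 2) for Epha2 and from -0.094 (without tumour 4) to 0.30 for Ncam1, which stood at -0.00058 without tumour 2 and at -0.0045 and -0.074 at resolutions of 0.5 and 2; L1cam stood at -0.0071 without the replicate block. In cycling cells it ran from -0.18 to 0.053 (without tumour 1) for St8sia1, which stood at 0.023 without tumour 2, from -0.050 to 0.015 (without tumour 4) for Cd47, which stood at 0.060 with at least 10 UMIs, and from -0.36 to 0.17 (without tumour 2) for Ncam1. The cause of these changes was not tested. The rare members (Epha2, Erbb2, St8sia1, L1cam) are limited by 0 to 34 UMIs in each oligodendrocyte-like or myeloid-like class.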
